A study of Homo sapiens with 10 samples.

Results

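The zinc finger genes of chromosome 19 were described here by the peaks of CTCF and of 3 histone marks that lie on them. They were taken as the protein-coding genes of chromosome 19 in GENCODE release 44 (hg38) whose symbol starts with ZNF. This gave 249 of the 1476 protein-coding genes of the chromosome, and the other 1227 served as the comparison. The symbol stands for a zinc finger protein, and 240 of the 249 ZNF genes held at least 3 matches to the C2H2 finger pattern in the coding part of the last exon of the canonical transcript, with a median of 12 fingers over all members and a maximum of 36 in ZNF208. The other 9 (ZNF414, ZNF653, ZNF625-ZNF20, ZNF536, ZNF507, ZNF428, ZNF541, ZNF816-ZNF321P and ZNF418) held fewer there and were kept, since the symbol alone was used to choose members. Most members lie side by side: 235 fall into 10 runs of at least 5 ZNF genes with less than 500 kb between neighbours.

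ChIP-seq was carried out in HEK293T, a human embryonic kidney cell line, with 1 library per target and condition. All cells but those of the input, whose source is not given, are labelled as 1 of 3 conditions. CT cells carried a non-targeting shRNA from a lentivirus and endogenous CGGBP1, KD cells carried a lentiviral shRNA that silences CGGBP1, and OE cells overexpressed CGGBP1, as CGGBP1-FLAG, from a lentivirus. CT and KD cells were selected with puromycin, which the sources do not state for OE. CTCF was measured in CT, KD and OE, H3K4me3, H3K9me3 and H3K27me3 in CT and KD, and DNA without antibody gave 1 input library. The KD cells express a construct set against several regions of the CGGBP1 reading frame, and the level of CGGBP1 cannot be read from peak lists.

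CGGBP1 binds CGG-rich repeats and is known for effects on repeat-derived sequence, and CTCF is a zinc finger protein that insulates neighbouring stretches of chromatin from each other. Most zinc finger proteins of chromosome 19 join a KRAB domain to an array of C2H2 fingers that reads DNA, and the KRAB domain recruits TRIM28 and the methyltransferase SETDB1, which lay down H3K9me3 on transposable elements. The finger array is usually encoded by a single last exon, and these 3′ ends are themselves known as places of H3K9me3 in many cells, while the promoters of the same genes carry H3K4me3, the mark of active or poised starts. H3K27me3 is the mark of Polycomb repression.

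On chromosome 19 CTCF had 1199 peaks (CT), 1620 (KD) and 1573 (OE). H3K4me3 had 2887 (CT) and 3058 (KD), H3K9me3 had 456 and 333, H3K27me3 had 321 and 297, and the input had 132. According to the labels, a peak needed a p below 0.0025 in the CT and KD libraries of CTCF, below 0.005 in that of OE and below 0.001 everywhere else, so CTCF was called least strictly in OE. A stretch between the arms without ZNF genes (chr19:24129969-30224890), which holds the centromere, took up 57.7% of the H3K9me3 peaks of CT and 76.6% of those of KD on the chromosome, 85.0% and 93.9% of the H3K27me3 peaks and 79.5% of the input peaks. For H3K9me3 and H3K27me3 the antibody named in the labels is the one that the study's methods name for the other mark, and each list was assigned to the mark that its title gives. Peaks were counted at promoters (1 kb on either side of the start of the canonical transcript), over gene bodies and over last exons, and a gene was called when at least 1 bp of a peak lay in the window. Intervals are 95% intervals with genes or peaks as units. They cover counting error within these libraries only. With 1 library per condition, no difference between conditions has a replicate check and no p-value is given.

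Sequences are shown first because the CTCF results refer back to them. The CTCF core consensus of 12 positions, allowing 1 mismatch on either strand, was held by 37.4% of the chromosome 19 CTCF peaks of CT, 43.7% of those of KD and 39.0% of those of OE. The match in the KD peak shared by ZNF829 and ZNF568 is not printed. Below are the matches in promoter peaks of 9 other ZNF genes, each in the orientation of the match, with the core in capitals and 24 bases on either side. The first pair was covered in all 3 conditions, ZNF256 and ZNF763 in KD and OE, ZNF491 in OE, and the others in KD.
ZNF20, chr19:12141191-12141250, minus strand: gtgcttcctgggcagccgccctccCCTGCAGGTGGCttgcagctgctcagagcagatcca
ZNF616, chr19:52139350-52139409, plus strand: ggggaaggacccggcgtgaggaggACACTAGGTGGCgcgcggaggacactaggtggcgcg
ZNF256, chr19:57947845-57947904, plus strand: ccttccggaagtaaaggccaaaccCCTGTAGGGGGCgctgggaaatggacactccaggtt
ZNF763, chr19:11964030-11964089, plus strand: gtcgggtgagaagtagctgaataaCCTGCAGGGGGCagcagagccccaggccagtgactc
ZNF491, chr19:11797567-11797626, plus strand: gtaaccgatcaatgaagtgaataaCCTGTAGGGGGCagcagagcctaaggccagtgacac
ZNF607, chr19:37719823-37719882, plus strand: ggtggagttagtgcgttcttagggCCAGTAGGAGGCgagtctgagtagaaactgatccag
ZNF460, chr19:57279941-57280000, plus strand: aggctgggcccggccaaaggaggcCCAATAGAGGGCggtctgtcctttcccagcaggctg
ZNF587B, chr19:57830253-57830312, minus strand: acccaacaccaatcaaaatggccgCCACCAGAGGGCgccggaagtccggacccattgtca
ZNF274, chr19:58182062-58182121, plus strand: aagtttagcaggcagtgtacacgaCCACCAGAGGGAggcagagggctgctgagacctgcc

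By annotation, the stretch at ZNF616 lies in an intron of that gene, the stretch at ZNF20 in an intron of the readthrough gene ZNF625-ZNF20, and those at ZNF256, ZNF607, ZNF460 and ZNF274 in no exon and no protein-coding gene. The stretch at ZNF763 lies in an intron of a protein-coding gene without a symbol, and that at ZNF491 overlaps an exon of another gene without a symbol. The ZNF587B stretch overlaps 18 bases of an annotated first exon. ZNF587B was the only one of these 9 whose core matched the consensus without a mismatch. The sites upstream of ZNF763 and ZNF491, members of the same run, were identical at 44 of 60 positions (73.3%), while those of ZNF256 and ZNF763 matched at 20. In ZNF616 the core occurs again within the printed stretch.

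H3K4me3 lay at the starts of most ZNF genes in both conditions. In CT, 202 of 249 promoters were called, which is 81.1% (interval 75.7 to 85.8), where 65.9% of all 1476 genes and 62.8% of the other genes were called. In KD it was 205 promoters, 82.3% (77.0 to 86.9), against 66.9% of all genes and 63.7% of the other genes. The share of ZNF genes thus exceeded that of the other genes by 18.4 percentage points (12.8 to 23.9) in CT and by 18.6 points (13.1 to 24.04) in KD. Against the 107 other genes that lie inside the runs, of which 43.0% were called in CT and 44.9% in KD, the ZNF genes stood further apart. In 36 members the start of another protein-coding gene lies within 1 kb, in 14 of them that of another member, so a promoter peak can belong to either gene. Over the gene bodies, 216 ZNF genes in CT and 218 in KD held an H3K4me3 peak, where 77.8% and 78.9% of all genes did.

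**Figure D1:**
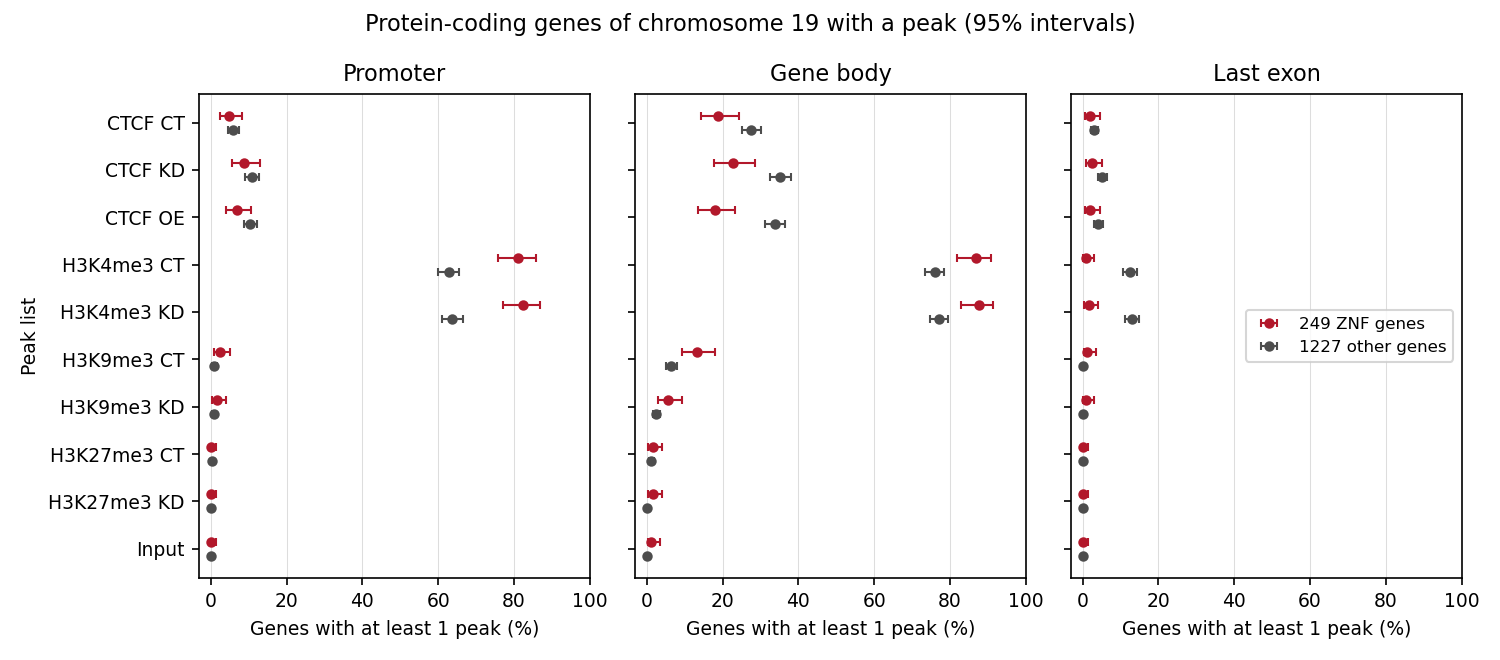
Share of genes (%) with at least 1 peak at the promoter, over the gene body and over the last exon, for each peak list, in 249 ZNF genes (red) and 1227 other protein-coding genes of chromosome 19 (grey), with exact 95% intervals as bars. The red points lie to the right of the grey ones for H3K4me3 at promoters (81.1% and 62.8% in CT) and to the left for CTCF over gene bodies (18.9% and 27.6% in CT) and H3K4me3 over last exons.

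The peaks sat on the start itself. At the start, 75.9% of the ZNF genes were covered in CT, close to the maximum of 76.7% at 400 bp downstream, whereas the other genes were covered in 33.9% at the start and in 47.1% at 400 bp, with a dip in between the flanks. Coverage of ZNF genes fell off within a shorter distance, to 8.84% of genes at 1 kb upstream and 22.9% at 1 kb downstream, against 18.99% and 29.2% of the other genes. Called ZNF promoters had a median of 1389 of 2001 bp under H3K4me3 in CT and 1376 bp in KD. In the 201 promoters called in both conditions, the KD cover minus the CT cover had a median of -7 bp. Of these, 112 genes were covered less and 87 covered more in KD. In the 765 promoters of other genes called in both, the median was 9 bp, with 323 covered less and 423 more. The CpG content of the window, given as the observed over the expected number of CG pairs, had a median of 0.605 in the 201 ZNF promoters called in both conditions and 0.570 in the 43 called in neither. In the other genes the medians were 0.645 in 765 promoters called in both and 0.301 in 440 called in neither, so uncalled ZNF promoters were closer in CpG content to called ones than uncalled promoters of other genes were.

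**Figure D2:**
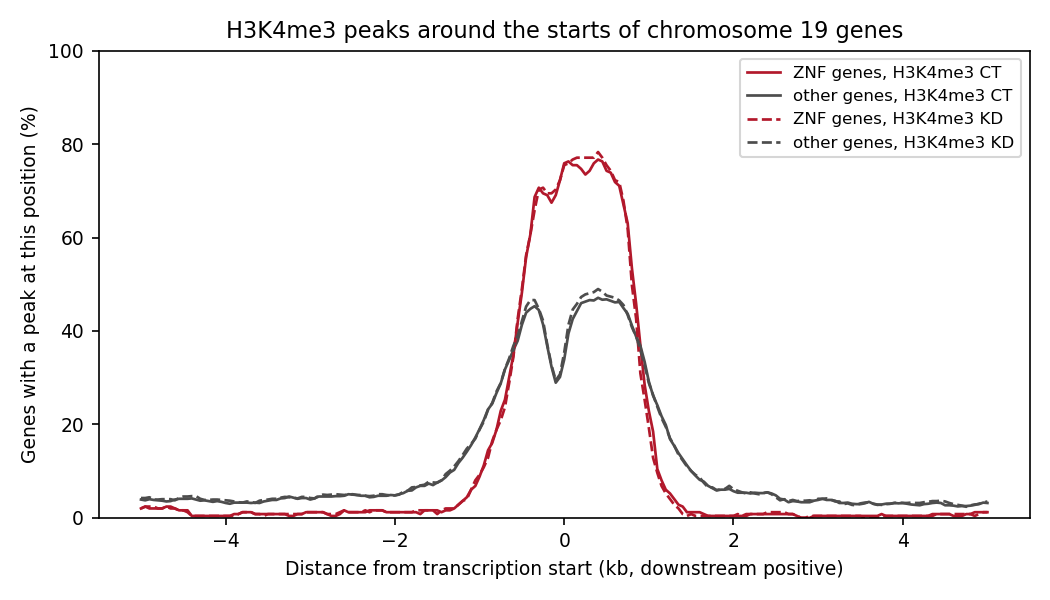
Share of genes (%) with an H3K4me3 peak at each distance from the transcription start (kb), in steps of 50 bp, for ZNF genes (red) and other genes (grey) in CT (solid) and KD (dashed). The red curves reach 76.7% in CT and 78.3% in KD at 400 bp downstream, and the CT and KD curves of each gene set lie nearly on each other.

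Among the runs, the share of promoters with H3K4me3 ranged from 62.2% to 100% in CT. All 26 members of the run from ZNF565 to ZNF573 (chr19:36182276-37817300) were called in CT and in KD, as were all 5 from ZNF302 to ZNF792, and 22 of 23 in the run from ZNF575 to ZNF180. The lowest share was in the run from ZNF101 to ZNF254 on the short arm next to the centromere (chr19:19668796-24129968), the longest run, with 23 of 37 members called in CT and 27 in KD. This run is the young cluster to which ZNF91 belongs, whose protein represses SVA elements. In the run from ZNF175 to ZNF331, 30 of 40 members were called in both conditions.

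**Figure D3:**
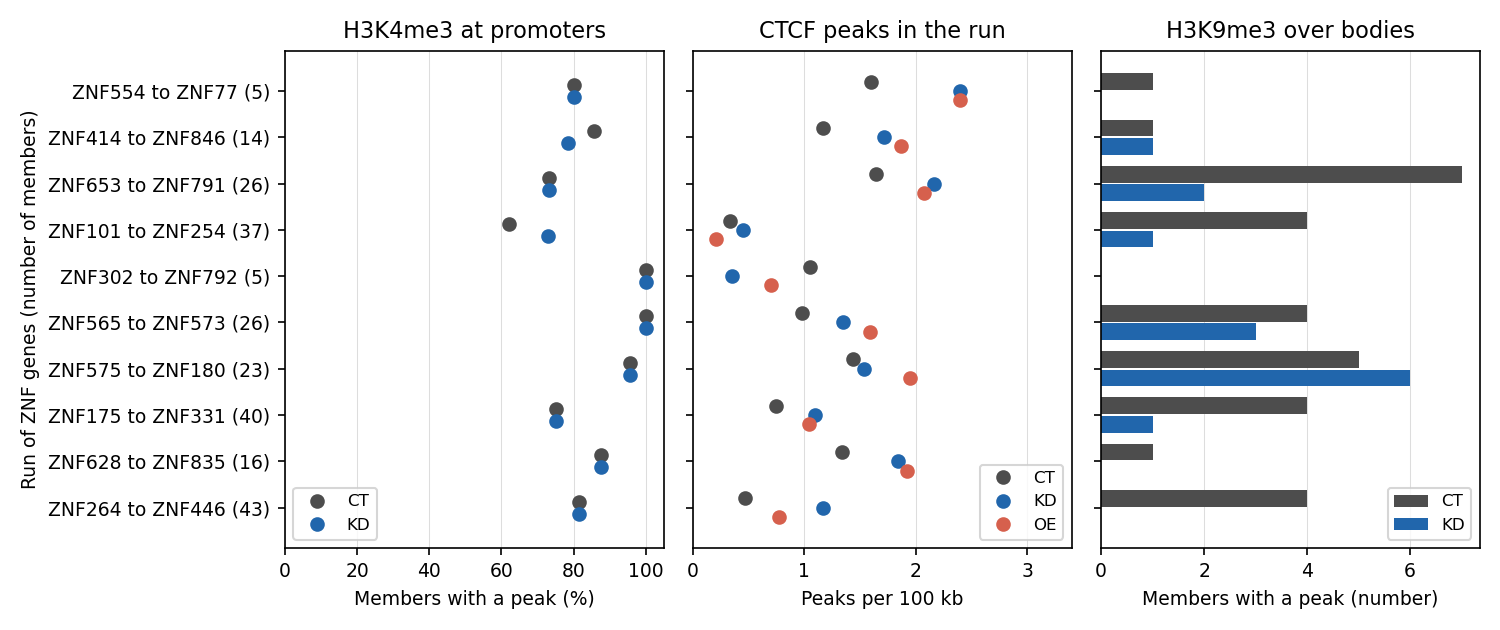
For each of the 10 runs, in chromosome order and named by the first and last member: members with an H3K4me3 promoter peak (%), CTCF peaks of the whole run per 100 kb, and number of members with an H3K9me3 peak over the body, in CT (grey), KD (blue) and OE (orange, CTCF only). The run from ZNF101 to ZNF254 has the lowest H3K4me3 share (62.2% in CT, 73.0% in KD) and between 0.202 and 0.448 CTCF peaks per 100 kb.

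H3K4me3 calls differed between CT and KD at 5 ZNF promoters. ZNF560 was called in CT only, with 205 bp of its promoter covered. ZNF85, ZNF99, ZNF208 and ZNF253 were called in KD only, with 455, 410, 333 and 262 bp covered in KD and 0 bp in CT. All 4 lie in the run from ZNF101 to ZNF254, and their peaks are centred 121 to 296 bp downstream of the start. As a share, 1.61% of ZNF genes were called in KD and not in CT, where 1.42% of all genes were, and 0.402% in CT and not in KD, where 0.407% of all genes were, so the number of changed calls was at the level of the chromosome, and the H3K4me3 list of KD is the longer one. The 4 genes are described here by position and sequence only.

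The starts of these 4 genes share sequence. The 120 bases upstream of each start are printed below in the direction of the gene, with CG pairs in capitals, and ZNF91, a member of the same run called in both conditions (866 bp covered in CT, 966 bp in KD), is shown for comparison. Other transcripts start inside the last 29 bases at ZNF85 and the last 6 at ZNF208.
ZNF85, chr19:20923131-20923250, plus strand: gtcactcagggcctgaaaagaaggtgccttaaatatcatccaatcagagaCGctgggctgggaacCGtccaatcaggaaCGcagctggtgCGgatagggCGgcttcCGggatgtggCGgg
ZNF99, chr19:22784152-22784271, minus strand: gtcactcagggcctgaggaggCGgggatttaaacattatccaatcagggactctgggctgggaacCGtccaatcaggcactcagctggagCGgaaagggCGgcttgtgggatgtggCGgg
ZNF208, chr19:22010944-22011063, minus strand: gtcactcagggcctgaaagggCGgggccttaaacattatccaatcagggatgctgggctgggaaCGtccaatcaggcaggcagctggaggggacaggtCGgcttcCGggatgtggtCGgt
ZNF253, chr19:19865762-19865881, plus strand: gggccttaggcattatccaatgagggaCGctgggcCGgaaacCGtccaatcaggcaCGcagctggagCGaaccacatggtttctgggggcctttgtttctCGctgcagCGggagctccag
ZNF91, chr19:23395472-23395591, minus strand: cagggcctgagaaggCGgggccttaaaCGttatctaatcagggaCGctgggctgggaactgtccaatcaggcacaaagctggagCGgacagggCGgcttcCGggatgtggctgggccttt

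The longest word that the 4 upstream stretches have in common is CGTCCAATCAGG, which holds the letters CCAAT. On either strand, this word occurs in the 2001 bp promoter window of 19 of the 1476 genes (1.29%), all of them ZNF genes and 18 of them members of the run from ZNF101 to ZNF254. Within that run it was found in the 4 promoters called in KD only, in 8 of 23 called in both conditions and in 6 of 10 called in neither. The word was picked from the 4 genes, so its presence in them follows from the choice. Promoter windows of the 4 genes had a median of 38.7% of bases in repeated 24-mers (24-base words that occur at least 10 times on chromosomes 1 to 22, X and Y), against 11.6% in the 201 ZNF promoters called in both conditions. In the 43 ZNF promoters called in neither condition the median was 19.9%. All 4 genes lie in the run from ZNF101 to ZNF254, against 23 of the 201 and 10 of the 43. The groups thus differed in run as well as in call. The part of repeated sequence in these calls was not tested.

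Of the members known for a function, 4 of 5 had H3K4me3 at the start in both conditions. ZNF274, whose protein brings SETDB1 to the 3′ ends of other zinc finger genes, had 1496 bp of the promoter covered in CT and 1570 bp in KD. ZNF420, a KRAB protein that restrains p53, had 1842 and 1832 bp. ZNF224, a repressor of the aldolase A gene, had 1563 and 1502 bp. The exception was ZNF331, an imprinted gene with several starts, which had no peak in the window around its canonical start but 1 peak inside the gene, covering 1484 bp in CT and 1461 bp in KD. With the starts of all protein-coding transcripts counted, 207 ZNF genes were called in CT and 209 in KD.

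CTCF was found at few ZNF promoters, and mostly at different ones in each condition. A peak was called at 12 promoters in CT (4.82%, interval 2.51 to 8.27), 22 in KD (8.84%, 5.62 to 13.1) and 17 in OE (6.83%, 4.03 to 10.7), where 5.69%, 10.5% and 9.82% of all genes were called. The shares of the other genes were 5.87%, 10.8% and 10.4%, and the differences were -1.05 points (-4.02 to 1.92) in CT, -2.004 (-5.94 to 1.93) in KD and -3.60 (-7.17 to -0.0355) in OE. Among the 107 other genes inside runs only 2.80%, 5.61% and 3.74% were called. The 235 ZNF genes of the runs differed from them by 1.88 points (-2.26 to 6.01) in CT, 3.33 (-2.36 to 9.01) in KD and 3.50 (-1.39 to 8.38) in OE. The sign thus turned in all 3 conditions, with intervals that include 0. Together 36 ZNF promoters were called in at least 1 list: 4 in all 3, 6 in CT only, 13 in KD only, 6 in OE only, 5 in KD and OE, 2 in CT and OE and 0 in CT and KD alone. Of the other genes, 176 promoters were called in at least 1 list. Of these, 54 were called in all 3, 7 in CT only, 35 in KD only and 31 in OE only. A further 38 were called in KD and OE, 5 in CT and OE and 6 in CT and KD alone.

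**Figure D4:**
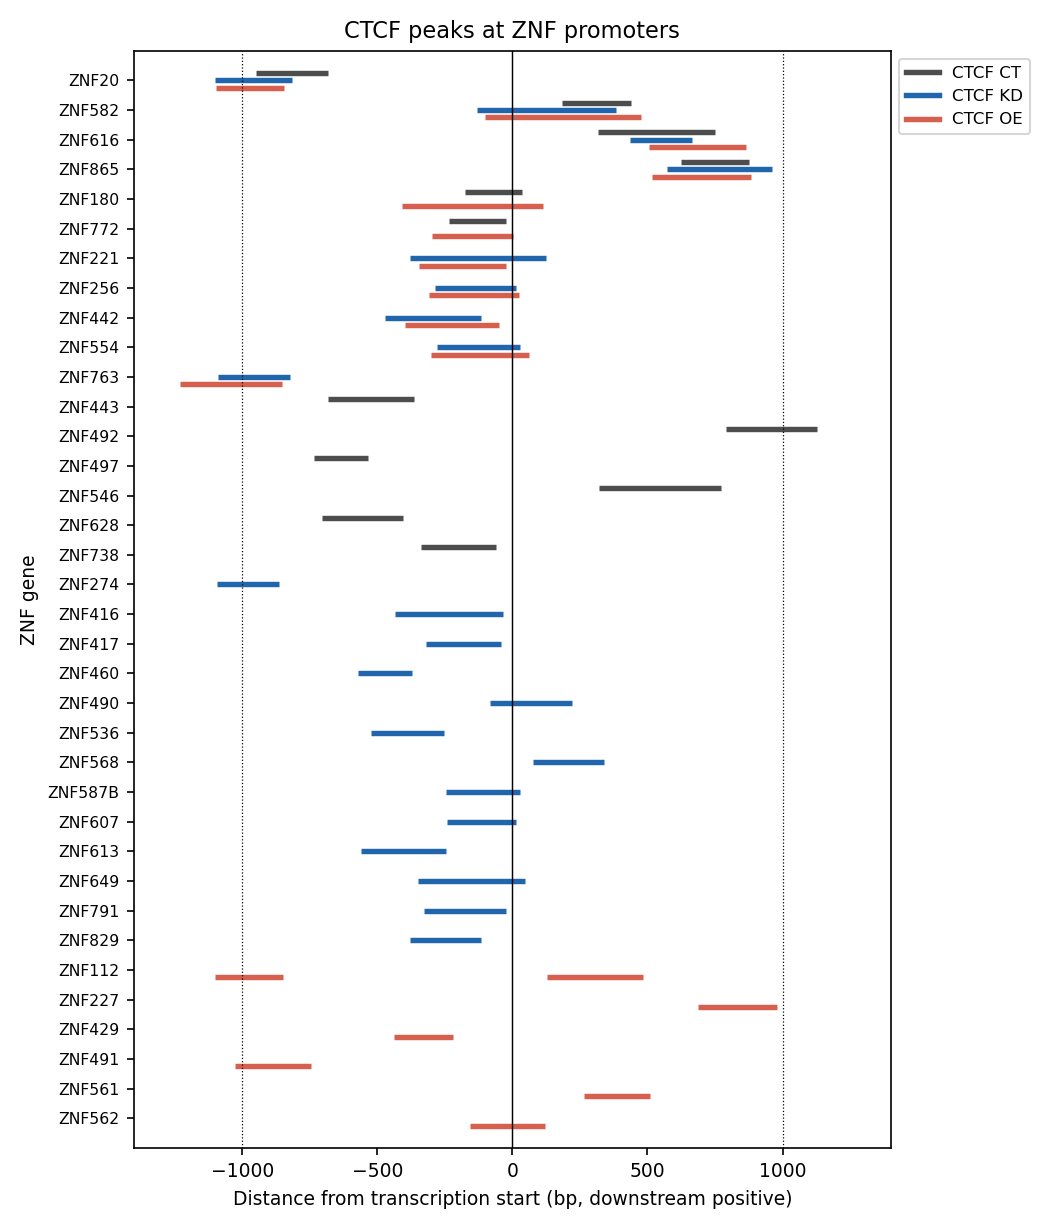
CTCF peaks within 1 kb (dotted lines) of the start of 36 ZNF genes, 1 row per gene, plotted by distance from the start (bp, downstream positive) in CT (grey), KD (blue) and OE (orange). The top 4 genes have a peak in all 3 conditions, 25 genes have peaks in a single condition, and peaks of different conditions at 1 gene overlap.

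The 4 promoters with CTCF in every list were those of ZNF20, ZNF582, ZNF616 and ZNF865. At ZNF582, a gene used as a methylation marker in cervical screening, the peaks covered 258 bp in CT and were centred 310, 126 and 188 bp downstream of the start in CT, KD and OE. At ZNF865 they were centred 750, 766 and 699 bp downstream, and at ZNF616 534, 551 and 684 bp downstream, around the printed core at 558 bp. At ZNF20 they lay 817, 958 and 973 bp upstream, with the core at 871 bp upstream. The core was found in the peaks of ZNF20 and ZNF616 and in those of neither ZNF582 nor ZNF865. All 4 were also called in the 3 lists from repeat-masked reads.

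Of the 12 ZNF promoters called for CTCF in CT, 4 (33.3%) were called in KD and 6 in OE, against 60 of 72 (83.3%) and 59 of 72 (81.9%) of the other genes. In the other direction, 4 of 22 (18.2%) of the KD calls were found in CT, against 60 of 133 (45.1%). The share of ZNF genes called in KD and not in CT was 7.23%, where 6.17% of all genes were, and of those called in CT and not in KD 3.21%, where 1.36% of all genes were. KD and OE shared 9 ZNF promoters, which is 40.9% of the 22 called in KD, against 92 of 133 (69.2%) of the other genes.

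The promoters with CTCF in CT only were those of ZNF546, ZNF443, ZNF628, ZNF738, ZNF492 and ZNF497. Their peaks measured 453, 321, 301, 281, 338 and 200 bp, and none held the core. At ZNF443 and ZNF497, 85.7% and 100% of the peak lay in repeated 24-mers. In KD only, ZNF416 and ZNF649 had the widest cover, 401 and 397 bp, followed by ZNF613 with 318 bp and by ZNF490 and ZNF791, which are transcribed away from each other and share a single peak of 303 bp. Another divergent pair, ZNF829 and ZNF568, likewise shares 1 KD peak, centred 248 bp upstream and 207 bp downstream of their starts. This shared peak held the core with 1 mismatch (chr19:36916487-36916498). Of the 20 distinct KD peaks at ZNF promoters, 9 (45.0%, interval 23.1 to 68.5) held the core, compared with 2 of 12 in CT (16.7%, 2.09 to 48.4) and 5 of 18 in OE (27.8%, 9.69 to 53.5). At other promoters, 44.8% of 67 peaks held the core in CT, 37.7% of 122 in KD and 36.0% of 114 in OE. The KD peak of ZNF274 lay around the printed core 969 bp upstream of its start and overlapped no H3K4me3 peak.

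In OE only, CTCF lay at ZNF112, ZNF227, ZNF562, ZNF491, ZNF561 and ZNF429. ZNF112 had 2 peaks, centred 306 bp downstream and 975 bp upstream of its start. In the peak at ZNF561, 86.5% of the bases were repeated. The 5 promoters called in KD and OE, those of ZNF221, ZNF554, ZNF442, ZNF256 and ZNF763, had peaks centred at nearly the same distance in both lists: 128 and 185 bp upstream at ZNF221, 125 and 120 bp at ZNF554, 293 and 224 bp at ZNF442, 137 and 143 bp at ZNF256, and 957 and 1041 bp at ZNF763. The cores in the ZNF256 and ZNF763 peaks are among those printed above. Over gene and peak pairs, all 12 CTCF peaks of CT, 18 of 22 of KD and 14 of 18 of OE at ZNF promoters overlapped an H3K4me3 peak of CT. Of all 249 ZNF promoters, with or without CTCF, 81.1% held an H3K4me3 peak of CT. The overlap of CTCF peaks with this mark at other promoters is not given here.

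Over gene bodies, CTCF was less frequent on ZNF genes than on the rest of the chromosome. A peak lay over 47 ZNF genes in CT (18.9%, interval 14.2 to 24.3), 57 in KD (22.9%, 17.8 to 28.6) and 45 in OE (18.1%, 13.5 to 23.4), where 26.2%, 33.2% and 31.2% of all genes were called. The differences from the other genes were -8.75 points (-14.2 to -3.29), -12.4 points (-18.3 to -6.53) and -15.8 points (-21.2 to -10.3), although ZNF genes are longer, with a median of 26097 bp against 13781 bp. Per 100 kb of merged gene bodies, the CTCF density of ZNF genes was 0.728 (CT), 0.914 (KD) and 0.808 (OE) peaks, and that of the other genes 1.62, 2.34 and 2.17. Inside the runs, 25.2%, 32.7% and 29.9% of the 107 other genes were called. The 235 ZNF genes of the runs differed from them by -6.94 points (-16.5 to 2.66) in CT and -10.2 points (-20.5 to 0.215) in KD, with intervals that include 0, and by -12.5 points (-22.4 to -2.52) in OE. The largest member, ZNF536, a 489 kb gene outside the runs that restrains neuronal differentiation, held 6, 9 and 8 of the peaks, and without it the density over ZNF genes was 0.694, 0.849 and 0.750 per 100 kb.

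The CTCF peaks in ZNF bodies differed from those in other genes in their sequence. At least 50% of the bases lay in repeated 24-mers in 19 of 55 peaks in CT (34.5%, interval 22.2 to 48.6), 14 of 69 in KD (20.3%, 11.6 to 31.7) and 12 of 61 in OE (19.7%, 10.6 to 31.8). Without such peaks, 12.05% of ZNF bodies were called in CT and 17.7% in KD. In other genes the shares of such peaks were 12.4%, 4.46% and 3.60%, although the bodies themselves were alike in repeated bases, with 31.2% in ZNF genes and 30.1% in other genes. The core was found in 8 of the 55 CT peaks (14.5%, 6.495 to 26.7), 28 of 69 in KD (40.6%, 28.9 to 53.1) and 16 of 61 in OE (26.2%, 15.8 to 39.1), against 53.0%, 59.7% and 56.4% of the peaks in other genes. Of the CT peaks over ZNF bodies, 19 of 55 (34.5%, 22.2 to 48.6) overlapped a KD peak, against 74.4% (70.0 to 78.5) in other genes. Those 19 held all 8 cores, and none of the 36 that were absent from KD held one. Of the 50 KD peaks absent from CT, 20 (40.0%) held the core. In other genes the core was in 220 of 323 CT peaks (68.1%) shared with KD and 10 of 111 (9.01%) absent from it. Of the 304 KD peaks absent from CT in other genes, 154 (50.7%) held it.

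Next to ZNF536, the members with most CTCF peaks over the body were ZNF627 with 2, 3 and 2 peaks in CT, KD and OE, ZNF420 with 3, 1 and 2, ZNF44 with 2, 2 and 1 and ZNF442 with 1, 2 and 2. ZNF274 and ZNF331 held none in any list, ZNF224 held 1 in OE and ZNF91 held 1 in KD. In the lists from repeat-masked reads, 37 ZNF bodies were called in CT, 21 in KD and 17 in OE, where 22.2%, 22% and 20.4% of all genes were, so the order of CT and KD was the opposite of that in the unmasked lists. In the other genes 23.7%, 24.8% and 23.1% were called in the repeat-masked lists.

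Over the last exons, where the finger arrays lie, peaks of any kind were rare. The last exons of ZNF genes had a median length of 3338 bp, against 732 bp in other genes, and 22.2% of their bases were repeated against 10.9%. CTCF was called over 5 of them in CT (2.01%), 6 in KD (2.41%) and 5 in OE (2.01%), where 2.85%, 4.67% and 3.66% of all genes were called. H3K4me3 was called over 2 in CT (0.803%, interval 0.0974 to 2.87) and 4 in KD (1.61%, 0.439 to 4.06), where 10.5% and 11% of all genes and 12.5% and 12.96% of the other genes were called. ZNF324 and ZNF580 were called in both conditions, and ZNF121 and ZNF507 in KD only. In all, 19 members had a peak of any unmasked list over the last exon, and in 4 of them it touched the finger array itself. No such pooled count is given here for the other genes, whose last exons are shorter.

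The array reached by CTCF in every condition was that of ZNF473, which encodes a protein of the U7 particle that trims histone mRNAs. Its peaks were chr19:50046877-50047352 in CT (476 bp), chr19:50046951-50047251 in KD (301 bp) and chr19:50046917-50047330 in OE (414 bp). They overlap in the coding part of the last exon, hold no repeated bases and no core. The arrays of ZNF30 in CT and of ZNF575 in KD held 1 CTCF peak each, again without repeated bases and at ZNF575 with a core, and the array of ZNF121 held an H3K4me3 peak in KD.

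H3K9me3 peaks over the last exons were at the level of single genes. In CT, 3 ZNF genes were called (1.20%, interval 0.249 to 3.48), ZNF283, ZNF681 and ZNF324, and in KD 2 (0.803%, 0.0974 to 2.87), ZNF283 and ZNF234, where 0.271% and 0.203% of all genes were called. All of these lay outside the finger arrays, and only that of ZNF234 reached the coding part. The ZNF283 peaks, of 215 bp in CT and 157 bp in KD, overlapped CTCF peaks of CT and KD and were repeated over 97.2% and 100% of their bases. The peaks at ZNF681 and ZNF324 measured 161 bp each, the narrowest width in the CT list. The H3K27me3 list of CT held a peak over 0.0678% of all last exons. H3K27me3 and input peaks were found over 0 of 249 ZNF last exons, and over 0 of 249 promoters. Taken as 3 counts of 249, a count of 0 allows a share of up to 1.20%, and its exact interval reaches 1.47%.

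Over whole gene bodies, H3K9me3 was called on 33 ZNF genes in CT (13.3%, interval 9.30 to 18.1) and 14 in KD (5.62%, 3.11 to 9.25), where 7.66% and 2.91% of all genes were called. The differences from the other genes were 6.73 points (2.30 to 11.2) in CT and 3.26 points (0.274 to 6.24) in KD. Inside the runs, 14.95% and 5.61% of the 107 other genes were called. Against these, the differences of all 249 ZNF genes came to -1.70 and 0.0150 points. Those of the 235 ZNF genes of the runs were -1.76 points (-9.79 to 6.26) and 0.350 points (-4.96 to 5.66). Without peaks that were repeated over at least 50% of their bases, the share of ZNF bodies was 5.22% in CT and 1.20% in KD, and the KD difference turned to -0.181 points. Per 100 kb, ZNF bodies held 0.477 peaks (0.334 to 0.660) in CT and 0.212 (0.121 to 0.344) in KD, and other bodies 0.313 (0.2495 to 0.387) and 0.108 (0.0723 to 0.155). The KD list of chromosome 19 is shorter than the CT list. With both lists cut to equal size, 14 ZNF bodies (5.62%) were called in CT. The lists hold no score to rank peaks by, so this count depends on which peaks were left out. At promoters H3K9me3 was called at 6 ZNF genes in CT and 4 in KD, where 1.15% and 0.949% of all genes were, and no promoter was called in both.

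Most H3K9me3 peaks of CT were narrow, on ZNF genes as on other genes. Of the 36 peaks in ZNF bodies, 24 were within 4 bp of the minimum width of 161 bp and 21 were repeated over at least 50% of their bases, where 59 and 49 of the 84 peaks in other gene bodies were. In ZNF bodies, 8 of the 36 (22.2%, interval 10.1 to 39.2) overlapped a KD peak. These 8 measured 193 to 278 bp in CT and 157 to 286 bp in KD, and the peaks found in 1 condition measured up to 218 bp in CT and 194 bp in KD, so the widths overlapped. In each of the 8, at least 50% of the bases were repeated. All 8 also overlapped a CTCF peak, and 3 overlapped an input peak. Of the 28 others, 13 were repeated over at least 50% of the bases and 5 overlapped a list of another target. The 8 shared peaks lie in 7 genes: ZNF227, ZNF283, ZNF404, ZNF420, ZNF44, ZNF567 and ZNF763.

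**Figure D5:**
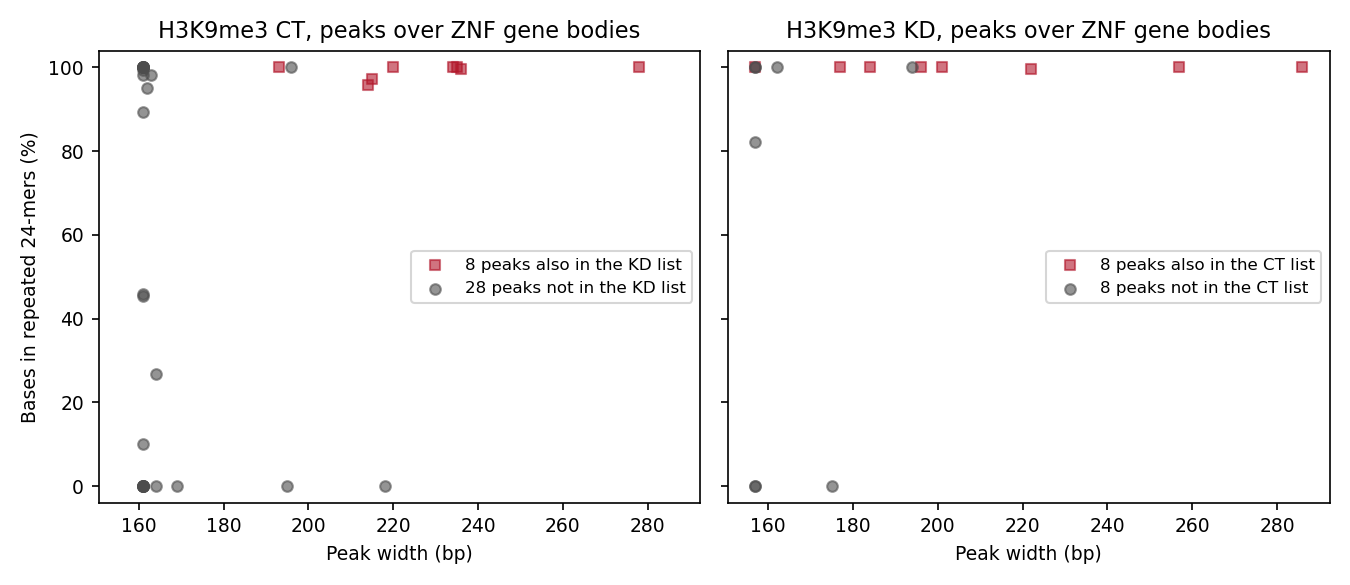
Width (bp) and share of bases in repeated 24-mers (%) of each H3K9me3 peak over ZNF gene bodies, in CT (left, 36 peaks) and KD (right, 16 peaks), with peaks that overlap one of the other condition as red squares and the rest as grey circles. The 8 shared peaks of each panel lie at the top, over 95% repeated, and 24 of the others in CT stand at the minimum width of 161 bp or within 4 bp of it.

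The 8 shared stretches were taken as the bases covered in both CT and KD. Those of ZNF763, ZNF44, ZNF567, ZNF404 and ZNF227 and both of ZNF420 lay in introns. The stretch of ZNF283 lay in the untranslated part of its last exon. All were repeated over 100% of their bases except 1 of ZNF420, at 99.5%. At the ZNF227 stretch, 9 of the 10 unmasked lists had a peak, that is all but the CTCF list of KD. At the ZNF567 stretch 8 lists had one, the exceptions being CTCF in CT and in KD. At ZNF44, peaks of H3K9me3 in both conditions were joined by CTCF in all 3 conditions and H3K27me3 in KD. At ZNF763 they were joined by CTCF in CT and H3K4me3 in KD. ZNF420 held 2 shared stretches, of which 1 overlapped an input peak. The part of repeated sequence and of input signal in the H3K9me3 calls was not tested.

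H3K27me3 was called over 4 ZNF bodies in CT and 4 in KD (1.61% each, interval 0.439 to 4.06), where 1.15% and 0.407% of all genes were called, and the input over 3 (1.20%), where 0.271% of all genes were. ZNF227 and ZNF567 were called for H3K27me3 in both conditions and in the input. ZNF420 and ZNF404 were called in CT only, and ZNF44 and ZNF808 in KD only. Apart from the peak of ZNF808, a repressor of MER11 elements whose loss disturbs the developing pancreas, each of these H3K27me3 peaks overlapped an H3K9me3 peak of CT and was repeated over its whole length.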

How the data were processed

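ChIP-seq peaks of CTCF, H3K4me3, H3K9me3, H3K27me3 and an input in HEK293T cells were used as 10 lists of unmasked reads and, as an alternative, 3 CTCF lists of repeat-masked reads. The values are genome positions, deposited by the authors as chromosome, start and end, with no count, score, fold or p-value of a peak, so the depth behind a peak is unknown. Per the labels and the study's methods, single-end Ion Torrent reads were filtered, mapped to hg38 with bowtie2 and peaks were called with MACS2 in each library. The methods state a p threshold of 0.005 for unmasked reads, whereas the labels state those given above. The 6 lists of exclusive peaks were not used here. Starts were read as counted from 0, and positions are printed counted from 1.

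Genes, exons and canonical transcripts were taken from GENCODE release 44 and sequence from hg38 with Python 3.11.15, numpy 2.4.6, scipy 1.17.1 and numba 0.67.0. Titles gave each library's target and condition. Intervals of shares are exact (Clopper-Pearson), those of differences normal, and those of densities exact Poisson intervals. They describe counting error, and no test was run between conditions. Fingers were counted with a C2H2 pattern. A base was repeated when some 24-mer over it had at least 10 copies on chromosomes 1 to 22, X and Y. The overlap counting was tested on simulated data. Members, windows and lists were chosen with earlier results of these data known. Genes were named by rules on the number of bases covered or of peaks (CTCF or H3K4me3 promoter calls by condition, H3K9me3 and H3K27me3 over last exons, CTCF over bodies) plus 5 known members. ZNF473, ZNF497, ZNF429, ZNF829, ZNF568, ZNF607, ZNF460, ZNF587B, the members with H3K9me3 or H3K27me3 over the body only and those with other last-exon peaks were named after their values were seen. Alternatives changed the windows, the overlap, the lists, the members and the comparison genes. The sequences of the H3K9me3 stretches are not reported here.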

Additional observations from a re-analysis of the deposited data

How the results depend on the processing

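Values are percentages of ZNF genes unless stated. With repeat-masked reads, CTCF over bodies moved to 8.43% in KD and 6.83% in OE, and over last exons to 0.803% in KD and 0.402% in OE. In the coding part of the last exon, CTCF in KD moved to 0.803% and H3K9me3 in CT to 0%. Lists of equal size took H3K9me3 over bodies in CT to 5.62%. An alternative chosen after seeing the data left out peaks with at least 50% repeated bases: CTCF over bodies moved to 12.05% in CT and 17.7% in KD, H3K9me3 over bodies to 5.22% in CT and 1.20% in KD, and H3K27me3 over bodies to 0% in CT and 0.402% in KD. Of the differences whose interval excluded 0, those that reversed were CTCF at promoters in OE (3.09 points against the 107 other genes inside runs), H3K9me3 over bodies in CT (-1.70 points, same comparison) and H3K9me3 over bodies in KD (-0.181 points without repeated peaks). Differences whose interval included 0 changed sign as well. Against the genes inside runs, CTCF at promoters came to 2.02 points in CT and 3.23 in KD, CTCF over last exons in CT to 0.139 and H3K9me3 over last exons in KD to -0.131. CTCF at promoters came to 0.389 points in CT with repeat-masked reads and to 0.0570 in KD within 500 bp of the start, and CTCF over last exons in CT to 0.0520 with at least 50% of the peak inside. H3K27me3 over bodies in CT came to -0.256 points without input peaks, -0.0118 with lists of equal size and -0.978 without repeated peaks. The cause was not tested. Against the same 107 genes, the H3K4me3 promoter differences were 38.1 points in CT and 37.5 in KD. In this section, comparisons with the genes inside runs kept all 249 ZNF genes. With only the 235 ZNF genes of the runs, the CTCF promoter difference in OE was 3.50 points (-1.39 to 8.38). The H3K9me3 body difference in CT was then -1.76 points (-9.79 to 6.26). Both intervals include 0. The H3K4me3 promoter shares stayed between 80.3% and 83.9% in the alternatives run on them. No paired analysis was possible because each condition has 1 library and no test was run. A left-out replicate could not be tried for the same reason. Without read depths, absent peaks cannot be told from peaks under the threshold, and in repeated sequence the lists depend on how reads with several matches were placed. For CTCF the study states that the best alignment of a read was kept and that reads without a unique place were dropped, and its methods name default mapping options.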
